A study of Mus musculus with 2 samples.

Results

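The genes described here encode 42 plasma proteins and apolipoproteins, of 43346 mouse genes measured. They were listed because liver-type genes were seen to differ between the pools of tissue, so the TPM and counts of these same libraries chose them, and the difference between pools is given below as a description, without a test. All 42 symbols matched an identifier in the deposited tables. Following the rule for the list, 8 genes that kidney or other cells outside the liver are known to make (Apoe, Clu, Apom, Serpinf1, Serping1, Itih5, C3 and Cp) were kept apart from the other 34, called liver-type here. That name is a working label and does not mean made in liver alone. Some of the 34, such as Apoa4 of the gut, are made elsewhere too.

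Total RNA came from kidneys of healthy B6NCrl mouse embryos of 15.5 days, with both sexes pooled. The only group, embryonic kidney, held 2 biological replicates: replicate 2 was pooled from 62 embryos and replicate 1 from 78 embryos. They are called the 62-embryo pool and the 78-embryo pool. Each pool gave 1 library from 10 ng of RNA, with 39415002 expected counts for the 62-embryo pool and 36244861 for the 78-embryo pool. Each replicate is itself a pool of many embryos, so differences between single embryos cannot be seen.

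Plasma proteins are secreted mainly by hepatocytes, and before birth the visceral endoderm of the yolk sac makes many of the same ones. They carry iron, heme, retinol, hormones and lipids, form and dissolve clots, and hold proteases in check. Apolipoproteins coat lipid particles and steer their assembly, enzymes and uptake. Kidney tubules take up filtered plasma proteins and also make a few of these transcripts themselves.

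Promoters are a feature the list was not chosen on, and some are shown because the short string GTTAAT, the core that HNF1 factors recognise, was present in several. Promoters from RefSeq (build GRCm38.p6, the assembly of mm10) ran from 250 bases before to 50 after the start, and the one nearest the start of the most abundant transcript was taken, within 1000 bases. A promoter was found for 30 members. On either strand, GTTAAT was present in 8 of 25 liver-type promoters (32%: Afp, Alb, F2, Fga, Fgb, Itih1, Serpina1a and Vtn), in 1 of 5 promoters of the genes also made outside the liver (20%, Cp), in 5.97% of 16919 promoters chosen in the same way, and in 4.23% of the 10050 whose genes reached 1 TPM in both pools. Below, 80 bases are printed on the gene's own strand for liver-type genes, with GTTAAT, or its reverse complement ATTAAC, in capitals.
Afp (chr5:90490572-90490651, plus strand): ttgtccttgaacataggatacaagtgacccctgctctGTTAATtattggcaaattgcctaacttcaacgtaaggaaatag
Alb (chr5:90460790-90460869, plus strand): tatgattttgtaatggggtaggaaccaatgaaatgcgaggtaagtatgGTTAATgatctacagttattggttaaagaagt
Serpina1a (chr12:103863620-103863699, minus strand): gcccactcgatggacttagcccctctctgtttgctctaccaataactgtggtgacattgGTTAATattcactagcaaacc
Fgb (chr3:83049864-83049943, minus strand): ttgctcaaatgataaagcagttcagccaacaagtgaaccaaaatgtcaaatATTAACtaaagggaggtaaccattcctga
Vtn (chr11:78498971-78499050, plus strand): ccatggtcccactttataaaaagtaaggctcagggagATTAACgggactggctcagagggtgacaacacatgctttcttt

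The capitals begin 105, 32, 21, 29 and 112 bases before the RefSeq start in Afp, Alb, Serpina1a, Fgb and Vtn. The string TATAAA was present in 7 of 25 liver-type promoters (28%), against 12.6% of all those searched and 7.09% of those at 1 TPM in both pools, and TGTTTAC, a string bound by FOXA factors, in 3 of 25 (12%), against 2.92%. CAAAGTCC and TTGCGCAA, strings bound by HNF4A and C/EBP factors, were found in 0 of the 30 member promoters, against 1.48% and 0.231% of all those searched. No string searched contains another, and all were searched on both strands. A match describes the letters only and was not read as a bound site.

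Levels of the members spanned a wide range, and in both pools the most abundant was Apoe, which is not liver-type. Levels are TPM, the deposited length-adjusted relative abundance, and a gene counted as detected at 1 TPM or more in both pools. Of the 42 members, 36 were detected: 28 of the 34 liver-type genes and all 8 genes also made outside the liver. The members together took 0.14% of all TPM in the 62-embryo pool and 0.0965% in the 78-embryo pool. The 8 genes also made outside the liver held 46.8% of the members' TPM in the 62-embryo pool and 59.9% in the 78-embryo pool.

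**Figure D1:**
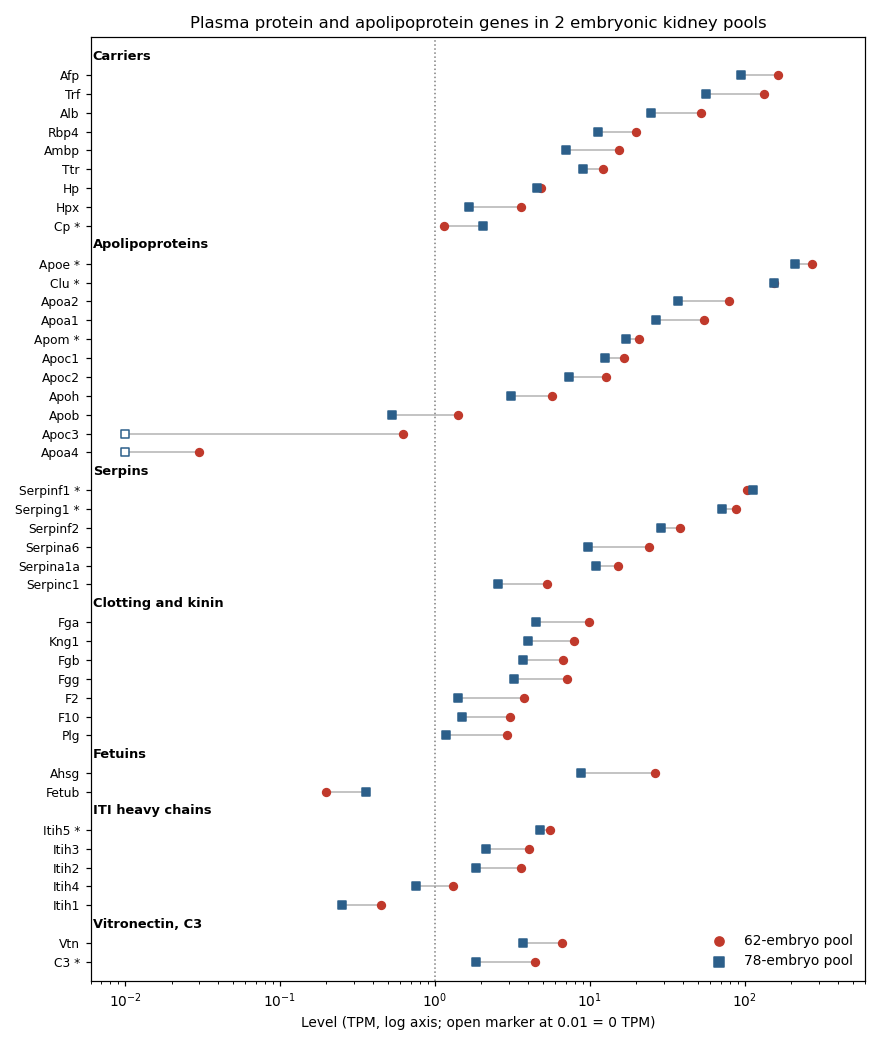
Level of each of the 42 members in TPM (log axis) in the 62-embryo pool (red circles) and the 78-embryo pool (blue squares), 1 library each, grouped by role; asterisks mark the 8 genes also made outside the liver, open markers at 0.01 stand for 0 TPM, the dotted line is 1 TPM. Most liver-type genes lie higher in the 62-embryo pool, while the markers of Clu coincide at 155 TPM in each.

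Among the plasma carriers, Afp, the main carrier of fetal plasma (ENSMUSG00000054932.3), was the most abundant liver-type gene at 164 TPM in the 62-embryo pool and 94.3 TPM in the 78-embryo pool. Trf, the iron carrier transferrin, had 133 TPM in the 62-embryo pool and 56.5 in the 78-embryo pool. Alb, encoding albumin (ENSMUSG00000029368.9), had 52.4 TPM in the 62-embryo pool and 24.7 in the 78-embryo pool. These 3 genes were higher in the 62-embryo pool by 1.74-fold, 2.36-fold and 2.12-fold in TPM, in the order given. Their counts are deep, with 8588, 6664 and 2687 expected counts in the 62-embryo pool, against 4590, 2620 and 1178 in the 78-embryo pool, so the exact 95% interval of the scaled count ratio was narrow: 1.65 to 1.77 for Afp, 2.22 to 2.43 for Trf and 1.94 to 2.23 for Alb. Those intervals cover counting error in 1 library a pool and not the spread between embryos or dissections. In bulk RNA, fewer cells of a type and less RNA per cell cannot be told apart. Afp exceeded Alb by 3.13-fold in the 62-embryo pool and by 3.81-fold in the 78-embryo pool.

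The other carriers stood lower. Rbp4, which carries retinol, had 20.0 TPM in the 62-embryo pool and 11.4 in the 78-embryo pool, and its partner Ttr, which also carries thyroxine, had 12.2 and 9.01 TPM in the 62- and 78-embryo pools. Ambp, the precursor of alpha-1-microglobulin and bikunin, had 15.4 TPM in the 62-embryo pool and 7.02 in the 78-embryo pool. The heme carrier Hpx had 3.60 TPM in the 62-embryo pool, against 1.66 in the 78-embryo pool. Its functional relative Hp, which binds hemoglobin, hardly differed in level, with 4.88 TPM in the 62-embryo pool and 4.56 in the 78-embryo pool, and its count ratio of 1.05 had an interval of 0.832 to 1.33. Cp, the copper-bearing ferroxidase ceruloplasmin, which cells outside the liver also make, went the other way, with 1.14 TPM in the 62-embryo pool and 2.04 in the 78-embryo pool. Both values of Cp lie below the bounds the authors' quantifier gives for them, 1.32 to 2.59 TPM and 2.26 to 3.95 TPM, so its level is uncertain.

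The apolipoproteins held both the highest member and the lowest. Apoe, which directs uptake of lipid remnants and is made by macrophages and many other cells, had 274 TPM in the 62-embryo pool and 212 in the 78-embryo pool. Clu, a secreted chaperone also called apolipoprotein J, had 155 TPM in each. Apom, a carrier of sphingosine-1-phosphate made by liver and proximal tubule, had 20.9 TPM in the 62-embryo pool and 17.2 in the 78-embryo pool. The liver-type members were led by the HDL proteins. Apoa2 had 78.9 TPM in the 62-embryo pool, against 37.2 in the 78-embryo pool, and Apoa1 had 54.7 TPM in the 62-embryo pool, against 26.8 in the 78-embryo pool. Both were 2-fold higher or slightly more in the 62-embryo pool, at 2.12-fold and 2.04-fold.

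The other liver-type lipid-particle genes showed less difference or lower TPM. Apoc1 had 16.6 TPM in the 62-embryo pool and 12.6 in the 78-embryo pool. Apoc2, the activator of lipoprotein lipase, had 12.7 TPM in the 62-embryo pool and 7.34 in the 78-embryo pool. Apoh, a phospholipid-binding plasma protein, had 5.70 TPM in the 62-embryo pool and 3.10 in the 78-embryo pool. Apob, the scaffold of very low density lipoprotein, had 1.41 TPM in the 62-embryo pool and 0.53 in the 78-embryo pool, from 340 and 123 counts on a very long transcript. It missed 1 TPM in the 78-embryo pool, yet its difference was wide, at 2.66-fold in TPM. Its scaled count ratio was 2.52, with an interval of 2.05 to 3.13. Apoc3, an inhibitor of lipoprotein lipase, had 7 counts in the 62-embryo pool and 0 in the 78-embryo pool, and Apoa4, typical of gut and liver, had 1.5 and 0. A count of 0 allows up to 3 counts.

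Serpins, which are protease inhibitors or hormone carriers, varied in how far apart the pools stood. The TPM ratios of liver-type Serpinf2 (1.32) and Serpina1a (1.39) were close to that of Serping1 (1.24), which is not liver-type. Serpinf1, the growth-inhibiting secreted serpin PEDF of many mesenchymal cells, had 104 TPM in the 62-embryo pool and 114 in the 78-embryo pool. Serping1, the C1 inhibitor, had 88.1 TPM in the 62-embryo pool and 71.0 in the 78-embryo pool. By contrast Serpina6, the corticosteroid-binding globulin, had 24.2 TPM in the 62-embryo pool and 9.76 in the 78-embryo pool, 2.48-fold higher in the 62-embryo pool. Serpinf2, the plasmin inhibitor, had 38.2 TPM in the 62-embryo pool, against 29.0 in the 78-embryo pool. Serpina1a, an alpha-1-antitrypsin gene, had 15.2 TPM in the 62-embryo pool and 10.9 in the 78-embryo pool. It shares reads with near-identical copies, so its own level is uncertain, and the sum over Serpina1a to Serpina1e stood at 35.1 TPM in the 62-embryo pool and 22.5 in the 78-embryo pool, a ratio of 1.56. Serpinc1, the thrombin inhibitor antithrombin, had 5.34 TPM in the 62-embryo pool and 2.57 in the 78-embryo pool.

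All 7 clotting and kinin genes were detected and lay higher in the 62-embryo pool. The 3 fibrinogen chains stood at similar levels to one another, with Fga, Fgg and Fgb at 9.84, 7.15 and 6.73 TPM in the 62-embryo pool and at 4.51, 3.27 and 3.71 TPM in the 78-embryo pool. Kng1, the precursor of bradykinin, had 7.87 TPM in the 62-embryo pool and 4.01 in the 78-embryo pool. Prothrombin F2 had 3.75 TPM in the 62-embryo pool, against 1.41 in the 78-embryo pool, the widest TPM ratio of these genes at 2.66. Factor X (F10) had 3.04 TPM in the 62-embryo pool and 1.5 in the 78-embryo pool, and plasminogen (Plg) had 2.94 and 1.18 TPM in the 62- and 78-embryo pools. Counts here are modest, from 119 to 659 in the 62-embryo pool and from 56 to 337 in the 78-embryo pool, and the interval of the count ratio of F2 ran from 1.99 to 3.57.

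The remaining members included the one with the widest ratio. Ahsg, which encodes fetuin-A, an inhibitor of mineral deposition, had 26.4 TPM in the 62-embryo pool and 8.85 in the 78-embryo pool, 2.98-fold apart in TPM, with an interval of the count ratio of 2.57 to 3.35. Fetub, the fetuin-B gene, had only 7 counts in the 62-embryo pool and 13 in the 78-embryo pool. Heavy chains of inter-alpha-trypsin inhibitor, which become bound to hyaluronan, were low: Itih3 had 4.08 TPM in the 62-embryo pool and 2.13 in the 78-embryo pool, and Itih2 had 3.58 and 1.85 in the same order of pools. Itih4 had 1.32 TPM in the 62-embryo pool and 0.76 in the 78-embryo pool, and Itih1 had 0.45 and 0.25. Itih5, a heavy chain made in several tissues outside the liver, had 5.55 TPM in the 62-embryo pool and 4.76 in the 78-embryo pool. The adhesion protein Vtn had 6.59 TPM in the 62-embryo pool and 3.72 in the 78-embryo pool, and complement C3 had 4.43 and 1.84.

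Between the pools, every one of the 28 detected liver-type genes had a higher TPM in the 62-embryo pool, with a median log2 ratio of 1.00 (quartiles 0.81 and 1.13) on a scale where the median of all 15108 detected genes was 0.02. The lowest was 0.10 for Hp and the highest 1.57 for Ahsg. Past 2-fold in TPM, 14 of the 28 were higher in the 62-embryo pool, where 0.986% of all detected genes were, and 0 were lower, where 0.781% were. With TMM or DESeq2 scaling of counts, 12 liver-type genes were higher, where 0.913% of all were, and 1 member, Cp, was lower, where 0.794% were. At 1.5-fold in TPM, 23 liver-type genes were higher, where 2.98% of all were, and Cp was lower, where 2.19% were; at 3-fold 0 were in either direction, where 0.218% were in each. Among genes with a mean count of 100, 13 liver-type genes were higher at 2-fold, where 0.829% were, and 0 members lower, where 0.4% were. The genes were listed for this difference, so nothing is read from those counts. Of the liver-type genes nearest the 2-fold limit, F10 lay just past it at a log2 ratio of 1.02, and Kng1 just short of it at 0.97. No p is given, because each pool is 1 library.

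The 8 genes also made outside the liver were closer to equal, with a median log2 ratio of 0.25. Apoe, Serping1, Apom and Itih5 lay between 0.22 and 0.37, and Serpinf1 lay at -0.13, while Clu had a TPM ratio of 0.999. The exceptions were C3 at 1.27, which lay past 2-fold with 509 counts in the 62-embryo pool and 227 in the 78-embryo pool, and Cp at -0.84. Over all detected genes the median absolute log2 ratio was 0.11 and the 95th percentile 0.60. Some liver-type genes lay in the same range, with Serpinf2 and Apoc1 at 0.40 each and Hp at 0.10. The division into these 8 and the liver-type genes follows only in part where the genes are known to be made. It was made with results of these libraries known, so the contrast between the sets is a description.

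**Figure D2:**
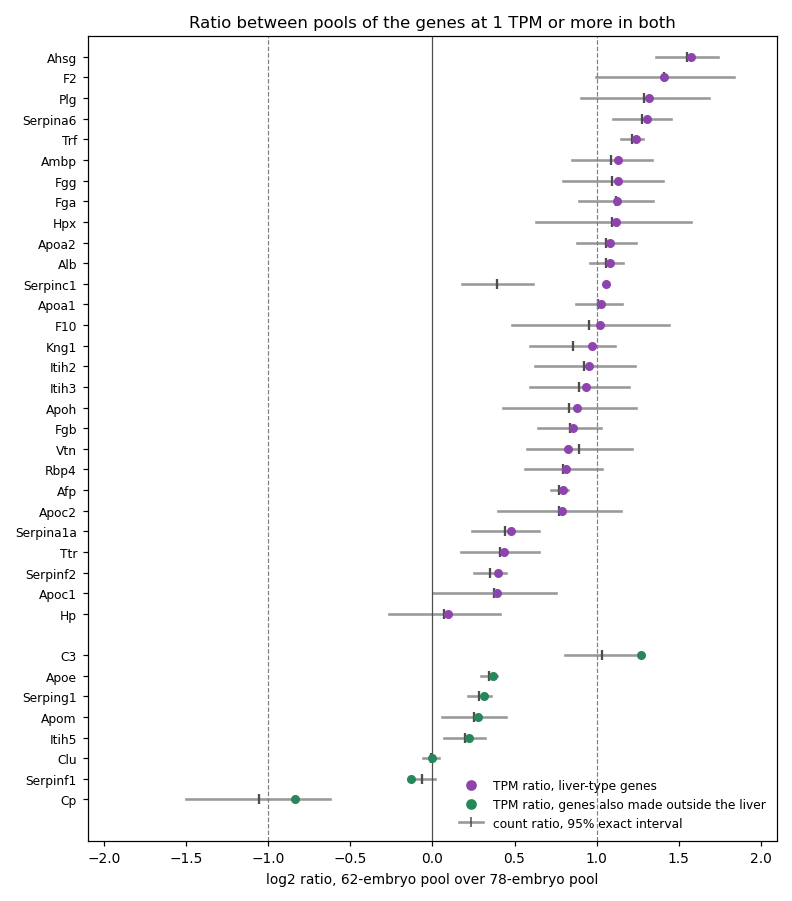
log2 ratio of the 62-embryo pool over the 78-embryo pool for the 36 members detected in both; dots are TPM ratios, ticks and bars the ratio of scaled expected counts with its 95% exact interval (counting error only), dashed lines mark 2-fold. The 28 liver-type genes all lie right of 0, from Hp at 0.10 to Ahsg at 1.57, and the dots of Serpinc1 and C3 lie outside their bars.

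The order of the liver-type genes was much the same in each pool. Across the 34 genes, Spearman's rho of TPM was 0.975, a description over genes that share the same 2 libraries and transcript lengths. The 5 most abundant held 65.0% of the liver-type TPM in the 62-embryo pool and 63.1% in the 78-embryo pool. Afp alone held 22.1% in the 62-embryo pool and 24.4% in the 78-embryo pool. Trf held 17.9% in the 62-embryo pool and 14.6% in the 78-embryo pool, Apoa2 10.6% and 9.63%, and Ahsg 3.55% and 2.29%. Serpinf2 held 5.14% in the 62-embryo pool and 7.50% in the 78-embryo pool. Summed over the 34 genes, the level was 743 TPM in the 62-embryo pool and 387 TPM in the 78-embryo pool, a ratio of 1.92.

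Many members lie beside one another in the genome, and neighbours within a group could differ widely in level. On chromosome 9, Apoa1 (chr9:46228580-46230466) lies next to Apoc3 (chr9:46232933-46235636) and Apoa4 (chr9:46240696-46243459), yet Apoa1 had 1343 counts in the 62-embryo pool and 608 in the 78-embryo pool, while Apoc3 and Apoa4 had at most 7. The further neighbour Apoa5 had 0 counts in the 62-embryo pool and 2 in the 78-embryo pool. On chromosome 16, Ahsg (chr16:22891277-22899449) lies beside Fetub and Hrg, and Hrg had 2 counts in each pool. On chromosome 3, by contrast, the fibrinogen genes Fgg, Fga and Fgb lay within a narrow range of TPM in each pool, as given above.

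Neighbours also differed in their ratio between pools. Afm, the albumin-family gene next to Afp, had 6.50 TPM in the 62-embryo pool and 6.36 in the 78-embryo pool, a log2 ratio of 0.03, beside 0.80 for Afp and 1.08 for Alb. Kng2, the gene next to Kng1, had 6.98 TPM in the 62-embryo pool and 7.46 in the 78-embryo pool, a log2 ratio of -0.10 beside 0.97 for Kng1. These 2 kininogen genes are close copies, so reads may be split between them. In the Apoe group on chromosome 7, Apoc4 had 6.24 TPM in the 62-embryo pool and 2.13 in the 78-embryo pool, a log2 ratio of 1.55, while Apoc1 and Apoe stood at 0.40 and 0.37. Flanking genes not known as plasma protein genes, around all the groups examined, lay between -0.10 for Rfc4 and 0.31 for Wdr81 where they reached 1 TPM in both pools. Ppp4r4, near the Serpina genes, had 1.36 TPM in the 62-embryo pool and 0.86 in the 78-embryo pool, a log2 ratio of 0.66.

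**Figure D3:**
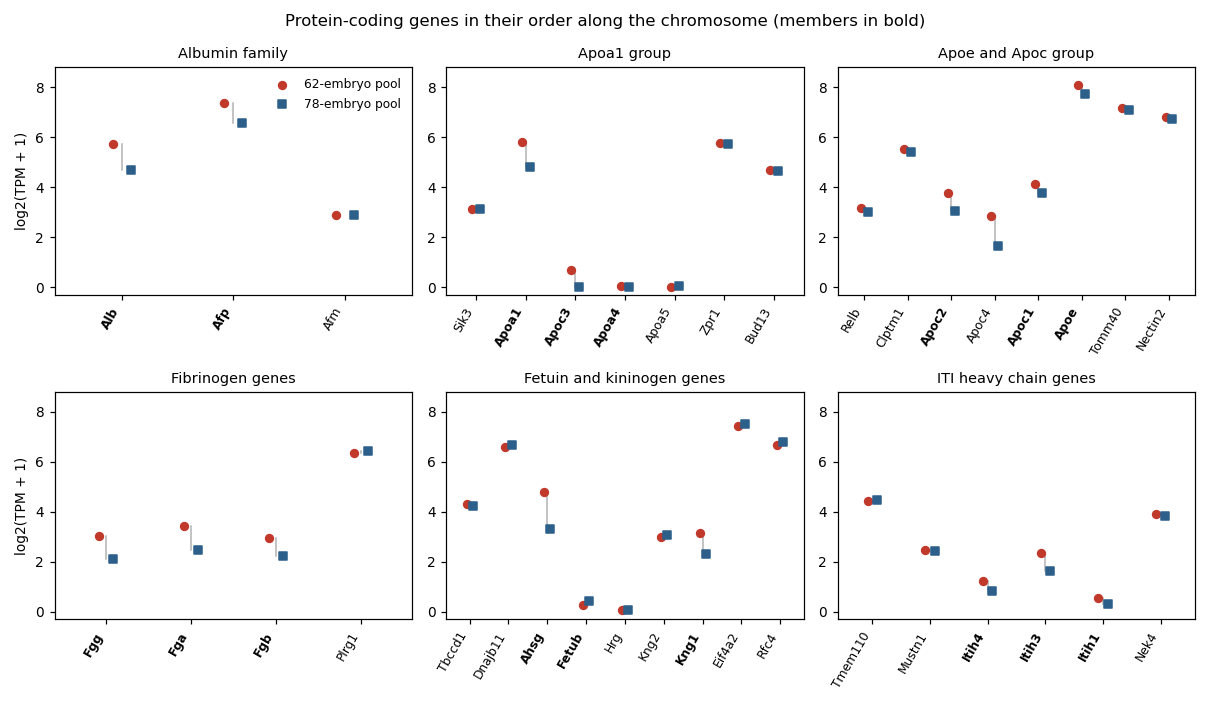
Level, as log2(TPM + 1), of members (bold) and of the protein-coding genes within 50 kb of them, in their order along the chromosome, for 6 groups; red circles are the 62-embryo pool and blue squares the 78-embryo pool. Apoc3, Apoa4 and Apoa5 sit near 0 beside Apoa1, and Afm and Kng2 sit at nearly the same level in both pools.

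Transcript forms, a readout that the list was not chosen on, were similar between pools for several abundant members and dissimilar for others. Values are the authors' percent of a gene's abundance given to each transcript. Apoe-209 held 80.8% of Apoe in the 62-embryo pool and 80.1% in the 78-embryo pool, and Clu-201 held 96.6% of Clu in the 62-embryo pool and 94.9% in the 78-embryo pool. The coding form Trf-201 held 64.4% of Trf in the 62-embryo pool and 71.5% in the 78-embryo pool, and the retained-intron form Trf-209 held 23.8% and 19.2%. For Serpinf1, the form marked for nonsense-mediated decay, Serpinf1-208, held 37.4% in the 62-embryo pool and 43.5% in the 78-embryo pool. Fga-201 held 71.6% of Fga in the 62-embryo pool and 76.6% in the 78-embryo pool.

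In Serpinf2 and F10, large shifts in form fell on transcripts that share nearly all their sequence. Serpinf2-201 held 79.3% of Serpinf2 in the 62-embryo pool and 37.7% in the 78-embryo pool, and Serpinf2-202 held 14.2% and 58.8%. Of the 75-base words in Serpinf2-201, 0% were absent from the gene's other transcripts, and in Serpinf2-202 only 1.43% were. The F10 transcript ENSMUST00000152034.1 held 87.1% of the gene in the 62-embryo pool and 0% in the 78-embryo pool. Another F10 transcript, ENSMUST00000128418.3, held 0% in the 62-embryo pool and 79.2% in the 78-embryo pool. Of their words, 4.95% and 5.37% were their own. In Serpinc1, the form of 4970 bases, Serpinc1-201, held 53.8% in the 62-embryo pool and 92.8% in the 78-embryo pool. Forms of 1044 and 742 bases held 23.1% and 20.6% in the 62-embryo pool and had 0 counts in the 78-embryo pool. The Serpinc1 counts of 429 in the 62-embryo pool and 298 in the 78-embryo pool differ by only 1.31-fold after scaling, with an interval of 1.13 to 1.53, against 2.08-fold in TPM. In Kng1 and Fgg, shifts also fell on forms with more sequence of their own within the gene. Words came from the later annotation M21, while the authors quantified with M4. The Kng1 forms named next have 1985 and 1663 bases as quantified, and 1995 and 1827 in M21. Their words were not compared with the close copy Kng2, so their own share is uncertain. The transcript ENSMUST00000039492.8, with 36.2% own words, held 49.8% of Kng1 in the 62-embryo pool and 77.9% in the 78-embryo pool, and the transcript ENSMUST00000089902.6, with 13.5%, held 38.6% in the 62-embryo pool and 5.64% in the 78-embryo pool. Fgg-201, with 21.7% own words, held 85.6% of Fgg in the 62-embryo pool and 71.7% in the 78-embryo pool. Itih3-201 held 52.1% of Itih3 in the 62-embryo pool and 75.1% in the 78-embryo pool. Its own words could not be judged, because other forms of Itih3 had no sequence to compare. In Cp, with few counts, Cp-209 held 43.4% in the 62-embryo pool and 5.17% in the 78-embryo pool, and 0% of its words were its own.

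Other plasma protein genes, listed beyond the members, were mostly low. Of 32, 7 were detected in both pools, with a median log2 ratio of 0.20, and 1 of them, Lcat, was past 2-fold higher in the 62-embryo pool. The threshold left out genes that reached 1 TPM in the 62-embryo pool alone. Those named next were picked after their values were seen, so their ratios are a description and their intervals cover counting error only. Serpina10, left out in the same way, had 49 counts in the 62-embryo pool and 39 in the 78-embryo pool. Its scaled ratio was 1.15 with an interval of 0.738 to 1.79. F5, below 1 TPM in both pools, had 49 and 43 counts in the same order of pools. F12, clotting factor XII, had 82 counts in the 62-embryo pool and 22 in the 78-embryo pool, a scaled ratio of 3.40 with an interval of 2.1 to 5.72. Apof, a lipoprotein-bound protein gene, had 62 counts in the 62-embryo pool and 11 in the 78-embryo pool, a scaled ratio of 5.14 with an interval of 2.69 to 10.8. Complement genes C4b and C5 had 62.2 and 54 counts in the 62-embryo pool and 19.5 and 21 in the 78-embryo pool. Fgl1 was the other way round, with 26 counts in the 62-embryo pool and 40 in the 78-embryo pool. Among them, the complement protease genes Cfi and Cfb were similar in both pools. Cfi had 14.1 TPM in the 62-embryo pool and 11.7 in the 78-embryo pool, and Cfb had 10.9 TPM in the 62-embryo pool and 10.04 in the 78-embryo pool. Serpina3k and Hamp, which adult liver makes in quantity, had 0 counts in both pools. Lcat, the enzyme that esterifies HDL cholesterol, had 2.23 TPM in the 62-embryo pool and 1.08 in the 78-embryo pool.

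Markers of the labelled tissue were present, with 7 of 7 nephron progenitor, 8 of 8 ureteric and 8 of 8 proximal tubule genes detected in both pools. Hepatocyte genes that are not secreted were detected in both pools for 8 of 22, their median log2 ratio was 0.16, and their summed level was 371 TPM in the 62-embryo pool and 319 in the 78-embryo pool. The sum included Dlk1, at 147 TPM in the 62-embryo pool and 96.3 in the 78-embryo pool, and Hnf4a, at 15.1 TPM in the 62-embryo pool and 15.9 in the 78-embryo pool, genes that adrenal cells or kidney tubules are also known to make. Of those more particular to hepatocytes, the urea cycle genes Cps1 and Otc had 58 and 33 counts in the 62-embryo pool and 7 and 8 in the 78-embryo pool. The hepatocyte gene Tat had 0 counts in both pools, and Cyp2d9 had 2.12 in the 62-embryo pool and 0 in the 78-embryo pool. Transcription factors of the liver were detected for 6 of 12, with a median log2 ratio of 0.11.

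Adrenal cortex genes were detected for 7 of 7, with a summed level of 153 TPM in the 62-embryo pool and 47.1 in the 78-embryo pool, and 6 were past 2-fold higher in the 62-embryo pool. Red cell genes summed to 24733 TPM in the 62-embryo pool and 21731 in the 78-embryo pool. Skeletal muscle genes summed to 306 TPM in the 62-embryo pool and 544 in the 78-embryo pool, and intestine genes to 19.7 and 41.1, with Cdx2 at 0 counts in the 62-embryo pool and 11 in the 78-embryo pool. Yolk sac endoderm genes, of which 7 of 8 were detected, summed to 269 TPM in the 62-embryo pool and 282 in the 78-embryo pool. In that sum, Lgmn had 97.7 TPM in the 62-embryo pool and 99.0 in the 78-embryo pool, and Ctsh 79.2 and 91.5. Cubn of this list is also on the proximal tubule list. In the same order of pools, Rhox5 had 26 and 20 counts and Pga5 had 1 and 1. The sum is therefore not a measure of yolk sac tissue. Nephron progenitor genes summed to 314 and 315 TPM in the 62- and 78-embryo pools, proximal tubule genes to 249 and 241, ureteric genes to 642 and 681, macrophage genes to 171 and 159, and stroma genes to 2328 and 1937. Their part in the members' difference was not tested.

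**Figure D4:**
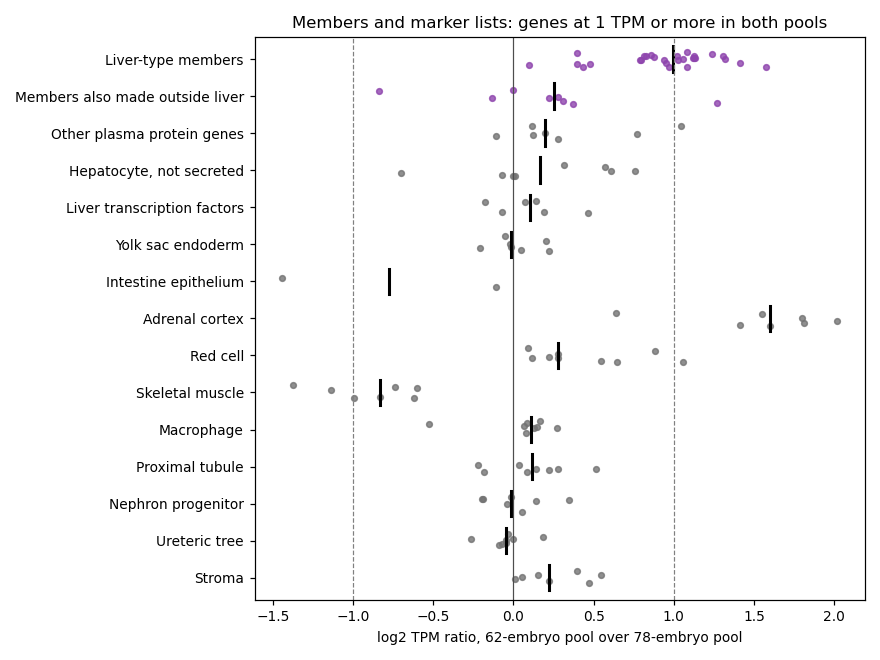
log2 TPM ratio of the 62-embryo pool over the 78-embryo pool for each gene at 1 TPM or more in both pools, by list; points are genes, black bars list medians and dashed lines 2-fold. Liver-type members centre on 1.00 and adrenal cortex genes on 1.60, skeletal muscle genes on -0.83, and nephron lists lie near 0.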

How the data were processed

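Per the labels, total RNA of 2 pools of embryonic kidney was sequenced, with RNA extracted by the mirVana method and 10 ng used for each library. Reads were aligned to mm10 and quantified with annotation M4 by the authors, per the text files deposited beside the tables. The names of aligner and quantifier, and any strand setting: not given in the sources used here. In the deposited expected counts, reads that match several features are shared out, so values need not be whole. The deposited TPM and FPKM values are scaled by length and library, spike-ins included. Each transcript's percent of its gene is the authors' column, and bounds of TPM, treated as a score, are the authors' as well. For symbols and positions, identifiers were matched to GENCODE M21, also on mm10 (98.0% of 43346 genes had a match), with C5 found through a RefSeq synonym.

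Members, lists and the division into 34 and 8 genes were chosen with earlier results of these data known. The rule for names took all members, the 3 genes of highest mean TPM of another list, neighbours by position, and transcripts holding 10% or more of a member at a mean of 10 TPM or more. Some genes that this rule names are not reported here. Lcat, Serpina3k, Hamp, Cps1, Otc, Tat, Cyp2d9, Cdx2, Cubn, Rhox5 and Pga5 were picked after their values were seen. So were F12, Apof, C4b, C5, Fgl1, Serpina10 and F5. The same holds for the transcripts of Fga, Fgg, F10, Kng1, Itih3, Cp and Serpinc1, and for the choice among transcripts and neighbours shown. Count ratios used expected counts rounded to whole numbers for exact Clopper-Pearson intervals (95%) and TMM factors from edgeR 4.0.16; R 4.3.3 and Python 3.11.15 were used. With 1 group and 1 library a pool there was no test. The ratio was checked on simulated data drawn with counting error only, so that check does not cover spread between pools. The labels give the libraries as 2 biological replicates, and their values were not copies of one another (chi-square per degree of freedom 11.3 over 19853 genes). Intervals and floors cover counting error only. The alternatives were FPKM, other thresholds, nuclear TPM, TMM and DESeq2 1.42.0 scaling, pseudocounts and each pool alone.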

Additional observations from a re-analysis of the deposited data

How the results depend on the processing

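The median log2 ratio of the detected liver-type genes was between 0.79 and 1.01 over nuclear TPM, TMM counts, DESeq2-scaled counts, log2(TPM + 1) and no filter with a pseudocount of 0.1, beside 1.00 as reported, and that of the genes also made outside the liver was between 0.23 and 0.27. The count of liver-type genes past the limit was 12 with TMM or DESeq2 scaling and 13 at a mean count of 100, but 23 at 1.5-fold and 0 at 3-fold. Of the genes also made outside the liver, 0 were higher at 3-fold, and 1, Cp, was lower at 1.5-fold and, at 2-fold, with TMM or DESeq2 scaling. At 5 TPM, 14 liver-type genes and 5 of the others were detected in both pools. Taking either pool alone gave 28 to 30 liver-type genes and 8 to 8 of the others. Over all 42 members, Afp held 11.7% in the 62-embryo pool and 9.78% in the 78-embryo pool. With TMM scaling 2 single members, Serpinc1 (0.39, beside 1.06 in TPM) and C3 (1.03, beside 1.27), moved by more than the arm of their counting interval and 34 did not. Clu, near a ratio of 1, had a log2 ratio of 0.02 in nuclear TPM. No paired analysis was possible because there is 1 group. Depth limits Apoa4, Apoc3, Fetub and Itih1, with at most 35 counts.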
